A study of Mus musculus with 185 samples.

Results

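Activated cells of the infarcted mouse heart that expressed Postn were divided by whether they retained or lacked Tcf21. The cells were chosen by measured values: Postn had to be above 5 TPM, a measure of transcript abundance scaled to an equal total in every cell, and a cell was called Tcf21-retaining when Tcf21 was above 5 TPM and Tcf21-lacking when it was not. This was done in 2 lineage-traced classes, and 66 of the 185 cells of the series were taken. Of the 44 Tcf21-traced cells, 39 passed for Postn, 22 of them retaining and 17 lacking Tcf21. All 27 Postn-traced cells had it, 13 retaining and 14 lacking Tcf21.

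The series holds single cells from uninjured hearts and from infarct tissue, captured by Fluidigm C1 protocols and sequenced cell by cell. The left coronary artery had been tied off for good to cause the infarct. Dead cells (7-AAD+) and CD31+ or CD45+ cells, which are endothelial and blood-derived, were gated away before capture. The mice were Tcf21 MCM/+; R26-eGFP for the Tcf21-traced class and Postn MCM/+; R26-eGFP for the Postn-traced class, all on a C57BL/6 background (backcross N=6) and about 5 months old by the labels. In both, MerCreMer, a Cre recombinase that works only with tamoxifen, was made under the Tcf21 or the Postn gene and switched on eGFP from the Rosa26 locus for good. The eGFP mark therefore records earlier activity of the gene and does not report its transcript at the time of capture. In the Postn line the MerCreMer sequence was placed at the start codon of 1 Postn allele, so these cells had 1 intact copy. By genotype, only the Tcf21-traced class carried MerCreMer on 1 Tcf21 allele, and its effect on the Tcf21 level was not tested. Infarct cells were taken about a week after injury by the study's description; the labels give neither this time nor the tamoxifen schedule of these mice. The cell names of the 2 classes begin with different dates, which are read here as separate captures, so class and capture cannot be told apart. No label ties a cell to a mouse, so each class counted as 1 sample, no test was run, and the spread between cells is given as a description.

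Tcf21 is a transcription factor of the basic helix-loop-helix (bHLH) family. It is made in the embryonic epicardium and in the resident fibroblasts that descend from it, and it is needed for cardiac fibroblasts to form. Like other tissue-restricted bHLH factors it pairs with widely expressed E proteins and binds short DNA motifs called E-boxes, and Id proteins can block such pairs. Postn encodes periostin, a matrix protein secreted by activated fibroblasts and myofibroblasts, the contractile and matrix-producing cells of the scar.

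In the Tcf21-traced class, Tcf21 in the retaining cells ran from 3.85 to 9.73 with a median of 6.84, in log2 (TPM+1), and it was listed at 0 in all 17 lacking cells. In the Postn-traced class it ran from 4.05 to 9.68 with a median of 8.43 in the retaining cells. Of the 14 lacking cells, 12 were listed at 0. The other 2 were at 2.04 and 2.58, which is 3.12 and 4.96 TPM and so just under the minimum. The nearest retaining cells lay at 3.85, 3.93 and 4.05 in the Tcf21-traced class and at 4.05, 4.93 and 6.24 in the Postn-traced class. The values are estimates without counts, and a listed 0 can be a failed detection: of the 100 genes with the highest median over the 66 cells, 18 were listed at 0 in at least 1 cell, in 25 of the 66 cells.

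Postn, the other gene used in the choice, differed between the sides by less than the spread between cells. Its median was 11.60 in the retaining and 11.50 in the lacking cells of the Tcf21-traced class, with ranges of 2.64 to 13.66 and 6.61 to 13.46. In the Postn-traced class the medians were 11.78 and 11.50, with ranges of 10.09 to 12.86 and 9.60 to 14.08. The difference of means, retaining minus lacking, was -0.43 and 0.16, beside an SD between cells of 0.91 to 2.61. The lowest retaining cell of the Tcf21-traced class stood only just inside the Postn minimum.

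**Figure D1:**
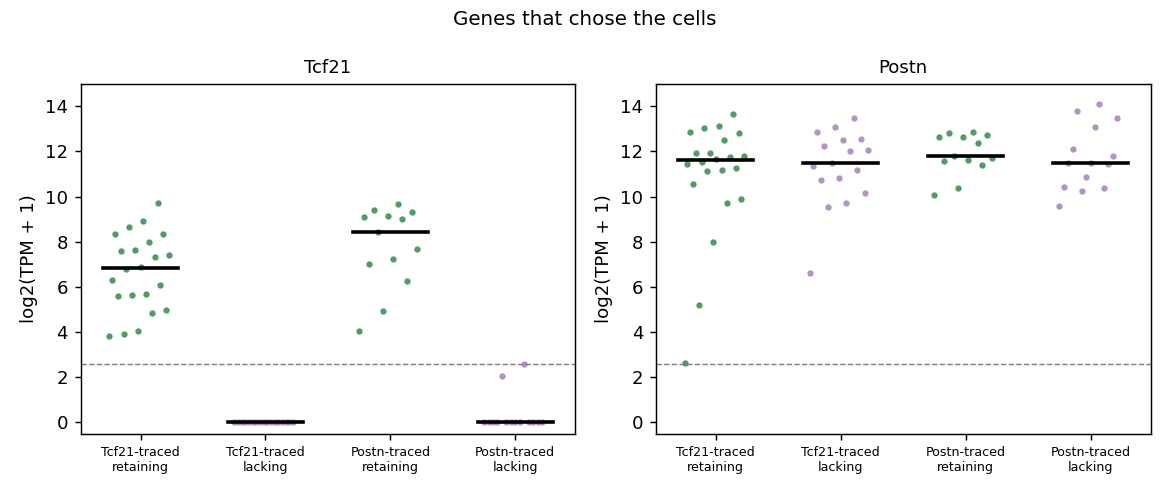
Tcf21 (left) and Postn (right) in each of the 66 cells, in log2 (TPM+1), by class and by whether Tcf21 was above 5 TPM (dashed line); bars are medians. Tcf21 is at 0 in all 17 lacking Tcf21-traced cells and in 12 of the 14 lacking Postn-traced cells, while the Postn medians lie between 11.50 and 11.78.

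The number of genes above 5 TPM per cell was used in place of read depth, which is not known for each cell. Its median was 3239.5 genes in the retaining (1815 to 5023) and 3410 in the lacking (2117 to 4619) Tcf21-traced cells. The Postn-traced cells had 3500 (2356 to 4332) and 3842.5 (2155 to 4541). The ranges overlapped widely, and by the median the retaining cells had somewhat fewer genes in both classes. By the mean they had more in the Tcf21-traced class (3491.86 against 3392.59) and fewer in the Postn-traced class (3372.62 against 3618).

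All 66 cells had at least 3 of 10 fibroblast genes above the minimum, and Dcn, which encodes the matrix proteoglycan decorin and was the most abundant of them, was above it in every cell. No cell had 3 or more markers of endothelial, myeloid, cardiomyocyte, epicardial or mesothelial, or Schwann cells, and the median summed level of each of these lists was under 1 TPM in all 4 groups, although single cells reached up to 1179 TPM (cardiomyocyte genes in a lacking Postn-traced cell). Ptprc, which encodes CD45, was listed at 0 in all 66 cells, as were Sox10 of Schwann cells and Lrrn4 of mesothelium. Of 7 pericyte genes, 3 or more were found in 1 Tcf21-lacking Tcf21-traced cell, with a median summed level of 2.08 TPM in that group. Higd1b was listed at 0 in all 4 groups, and the most abundant gene of the list over the 66 cells was Kcnj8, at a mean of 44.5 TPM in the lacking Tcf21-traced cells. Kcnj8 was above the minimum in only 5.88% of these cells and in none of the other groups, so this mean is not a level of the group.

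Smooth muscle genes, some of which myofibroblasts also use, were found more often. Of 7, at least 3 were above the minimum in 5 of 22 retaining and 5 of 17 lacking Tcf21-traced cells, and in 0 of 13 and 4 of 14 Postn-traced cells. Their summed level had a median of 126 and 393 TPM in the former class and of 90.1 and 328 TPM in the latter, lower in the retaining cells of both. Tagln was the most abundant over the 66 cells, with means of 267, 235, 158 and 845 TPM in the same order, but Acta2 passed it in the lacking Tcf21-traced cells (322 TPM). Myh11, the myosin that defines smooth muscle, passed the minimum in 1 cell. The part of these cells in the differences below was not tested. Without the cells that had 3 or more smooth muscle or pericyte genes, 74 of the 112 genes counted below as higher in both classes and 32 of the 67 counted as lower were counted again. All 24 leading genes kept their direction, and 11 of the 12 higher and 10 of the 12 lower ones kept at least 1 log2 unit.

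Genes were compared by the difference between the mean log2 (TPM+1) of retaining and of lacking cells within each class. A gene was counted when it differed by at least 1 log2 unit and passed 5 TPM in 50% or more of the higher side's cells. Such a gene passes through the side on which it is high, and the counts are by size and not by a test. In the Tcf21-traced class 535 of 2893 genes that met the 50% condition on either side (18.5%) were higher and 396 (13.7%) lower in retaining cells. Among Postn-traced cells 540 of 3177 (17%) were higher and 749 (23.6%) lower. The difference of the median gene was 0.07 and -0.13.

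Of the 2456 genes that met the condition in both classes, Tcf21 left out, 112 (4.56%) were higher with Tcf21 in both and 67 (2.73%) were lower in both. A further 106 (4.32%) moved in opposite directions. The 179 genes past 1 log2 unit the same way in both classes thus outnumbered the 106 past it in opposite directions. Most genes past 1 log2 unit in a single class did not reach it in the other. Within the 2456 genes, the 112 made up 27.3% of the 410 higher in the Tcf21-traced class, beside 17.3% of all 2456 that were higher in the Postn-traced class, and 26.3% of the 426 higher in the latter, beside 16.7%. The 67 made up 20.9% of the 320 lower genes and 14.2% of the 472, beside 19.2% and 13%, so the overlap of the lower genes was near the share of all genes.

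**Figure D2:**
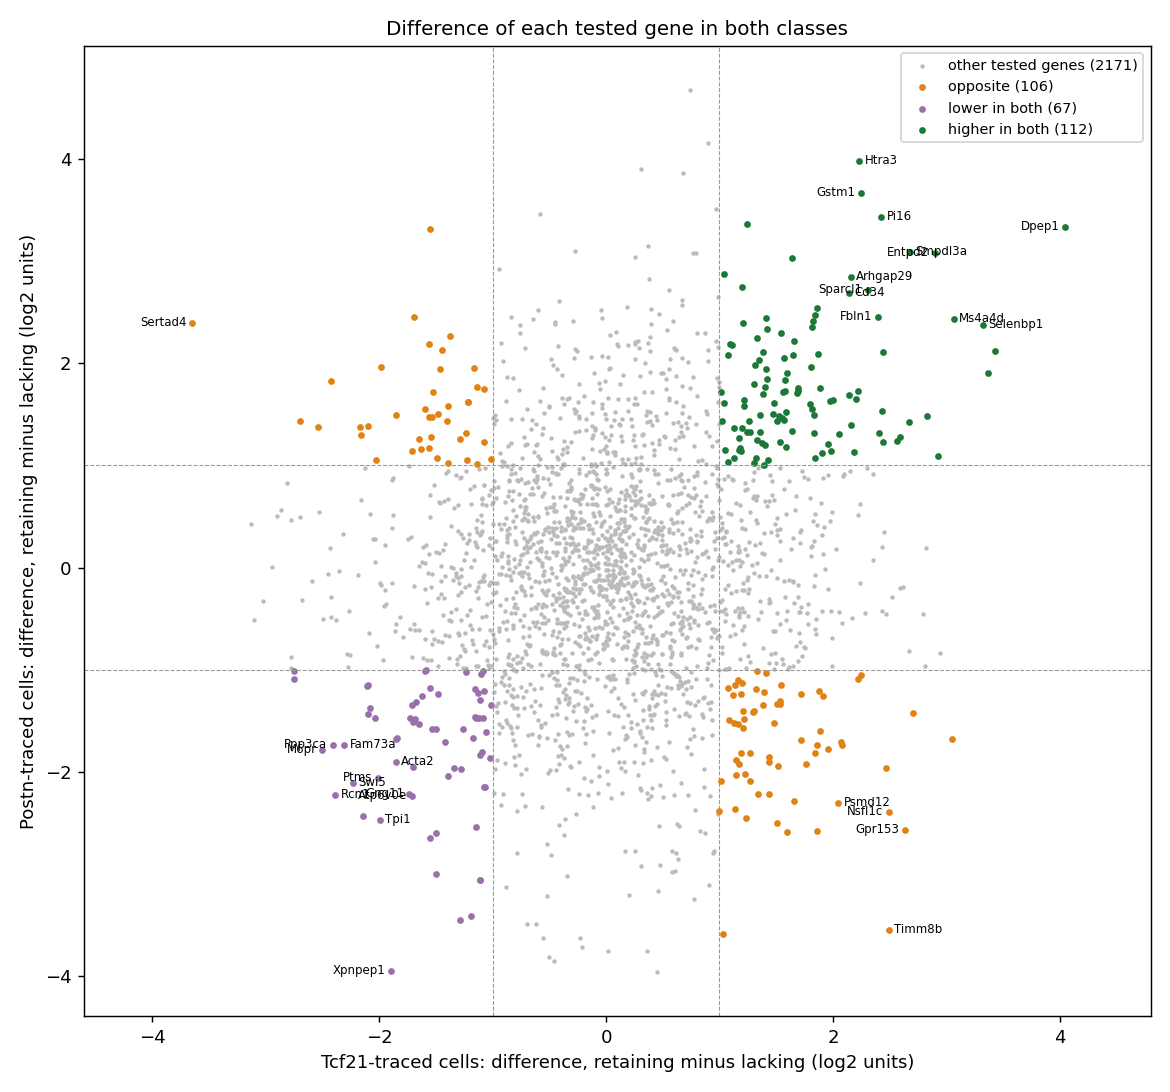
Difference of each of the 2456 genes between Tcf21-retaining and Tcf21-lacking cells, in log2 units, in the Tcf21-traced class (horizontal) and the Postn-traced class (vertical); dashed lines mark 1 log2 unit and most leading genes are named. The upper right holds the 112 genes higher in both, the lower left the 67 lower in both and the other corners the 106 opposite genes.

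The 12 leading higher genes, ranked by the smaller of the 2 differences, were Dpep1, Entpd2, Smpdl3a, Ms4a4d, Pi16, Fbln1, Selenbp1, Sparcl1, Gstm1, Htra3, Arhgap29 and Cd34. Dpep1, a membrane dipeptidase, ranked first, although in cells with Xist above 5 TPM it turned to -0.97 in the Postn-traced class. It ran from 0 to 11.69 with a median of 8.65 in retaining Tcf21-traced cells and from 0 to 11.21 with a median of 1.16 in lacking ones. Its medians in the Postn-traced class were 8.15 and 2.21. It was above 5 TPM in 20 of 22 cells (90.9%, exact 95% Clopper-Pearson interval for counting error only, 70.8% to 98.9%) against 7 of 17 (41.2%, 18.4% to 67.1%), and in 11 of 13 against 7 of 14 cells. The range of the lacking cells lay within that of the retaining cells in both classes, and the share of cells with the transcript differed. In the Postn-traced class the highest value was 11.41 in retaining and 9.06 in lacking cells. The differences of means were 4.04 and 3.34, near the SD between cells of 3.36 to 4.44.

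Pi16, a secreted and surface-bound peptidase inhibitor, had medians of 6.81 in retaining and 2.77 in lacking Tcf21-traced cells, and of 7.30 and 2.41 in the Postn-traced class. No lacking Postn-traced cell exceeded 6.69. The differences were 2.42 and 3.43. Htra3, a secreted serine protease, was above the minimum in all 13 retaining Postn-traced cells, from 5.80 to 9.67, against 8 of the 14 lacking cells, of which 6 were listed at 0. In the Tcf21-traced class its medians were 8.42 and 5.74, and the differences were 2.23 and 3.98. Cd34, a sialomucin of the surface of fibroblasts and endothelial progenitors, was abundant on both sides, with medians of 9.28 and 7.53 in the Tcf21-traced and 9.53 and 6.78 in the Postn-traced class. It differed by 2.15 and 2.69, less in the share of cells, 21 of 22 against 14 of 17 and 12 of 13 against 12 of 14, than in level.

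Entpd2, an ectoenzyme that breaks down extracellular ATP, differed by 2.90 and 3.08, and was above the minimum in 18 of 22 against 9 of 17 and in 9 of 13 against 4 of 14 cells. Sparcl1 and Fbln1 encode the matrix proteins hevin and fibulin. Sparcl1 differed by 2.31 and 2.72 and was found in every retaining Postn-traced cell, from 3.60 to 10.27. Fbln1 differed by 2.40 and 2.46, with medians of 7.10 against 3.81 and 9.11 against 3.66. Gstm1, a glutathione transferase with close family members that reads can be shared with, differed by 2.25 and 3.67. With the mean of TPM before the logarithm it turned to -0.36 in the Tcf21-traced class. The other 4 were Smpdl3a, a phosphodiesterase (2.68 and 3.09), the membrane protein gene Ms4a4d (3.07 and 2.43), Selenbp1, a selenium-binding oxidase (3.32 and 2.38), and Arhgap29 (2.16 and 2.85).

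Because Tcf21 is a bHLH factor, the promoters of the leading genes, which were chosen for a shared direction, were looked at. The RefSeq promoters of the leading genes (GRCm38.p6, 250 bases before to 50 after the start) were searched on both strands for the E-box CAGCTG, a palindrome and 1 form of the general E-box CANNTG. Of the 12 higher genes 10 had a promoter in the table, and 6 of these (Dpep1, Ms4a4d, Pi16, Fbln1, Htra3 and Arhgap29) held CAGCTG. Of the 12 lower genes 6 had a promoter and 2 (Xpnpep1 and Acta2) held it. Over all 112 higher genes it was in 23 of 81 with a promoter (28.4%) and over the 67 lower genes in 10 of 41 (24.4%). Among all genes that met the 50% condition in both classes it was in 294 of 1812 (16.2%). It was also in 5 of 17 of the immediate early genes named below (29.4%). The general E-box CANNTG was in 71.6% of the 112 and 68.3% of the 67. It was in 63.8% of the genes that met the condition in both classes, against 75% of the 27025 genes searched. Of the 32851 promoters searched, 16.3% held CAGCTG and 72.3% held CANNTG, and 18.3% of the 27025 genes had CAGCTG in at least 1 promoter. Promoters of 1 chromosome were left out of the search, so genes on it count here as having no promoter. Such a match is a string of letters and not a measured binding site. The promoters of 4 higher genes and of Acta2, the gene of smooth muscle actin, are shown with CAGCTG in capitals, read 5′ to 3′ on the strand of the gene. The motif began 20, 23 and 11 bases after the start in Dpep1 (chr8:123185985-123186284, plus strand), Pi16 (chr17:29318632-29318931, plus strand) and Fbln1 (chr15:85205699-85205998, plus strand; the first of 2 listed starts). It began 123 bases before the start in Htra3 (chr5:35679731-35680030, minus strand) and 182 bases before it in Acta2 (chr19:34255324-34255623, minus strand).
Dpep1: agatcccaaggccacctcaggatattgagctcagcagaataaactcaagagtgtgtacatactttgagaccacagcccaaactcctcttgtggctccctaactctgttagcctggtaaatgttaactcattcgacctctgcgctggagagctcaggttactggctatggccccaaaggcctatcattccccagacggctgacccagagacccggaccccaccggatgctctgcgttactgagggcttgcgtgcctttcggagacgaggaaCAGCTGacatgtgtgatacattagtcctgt
Pi16: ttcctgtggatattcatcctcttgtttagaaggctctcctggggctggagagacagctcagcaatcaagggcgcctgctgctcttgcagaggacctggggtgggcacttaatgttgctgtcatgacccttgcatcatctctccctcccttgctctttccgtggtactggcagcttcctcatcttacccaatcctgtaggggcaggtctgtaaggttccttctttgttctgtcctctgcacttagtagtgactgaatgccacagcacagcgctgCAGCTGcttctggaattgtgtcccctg
Fbln1: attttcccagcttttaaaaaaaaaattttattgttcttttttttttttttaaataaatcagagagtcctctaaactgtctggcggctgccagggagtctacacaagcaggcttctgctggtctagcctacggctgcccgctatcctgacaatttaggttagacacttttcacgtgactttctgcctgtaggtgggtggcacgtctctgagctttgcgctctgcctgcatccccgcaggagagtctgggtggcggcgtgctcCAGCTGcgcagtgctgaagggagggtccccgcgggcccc
Htra3: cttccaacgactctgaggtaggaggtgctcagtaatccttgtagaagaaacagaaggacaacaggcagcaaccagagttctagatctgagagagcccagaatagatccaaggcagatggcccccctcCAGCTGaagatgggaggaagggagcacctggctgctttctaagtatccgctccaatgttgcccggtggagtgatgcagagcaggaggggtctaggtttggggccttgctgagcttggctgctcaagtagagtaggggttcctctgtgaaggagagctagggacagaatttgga
Acta2: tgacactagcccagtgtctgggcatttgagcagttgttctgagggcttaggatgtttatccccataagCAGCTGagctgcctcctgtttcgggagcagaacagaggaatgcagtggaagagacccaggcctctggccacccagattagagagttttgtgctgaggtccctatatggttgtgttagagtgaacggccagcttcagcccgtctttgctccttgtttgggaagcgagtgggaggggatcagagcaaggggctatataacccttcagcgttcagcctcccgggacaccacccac

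The 12 leading lower genes were Rcn1, DQ685217, Swi5, Ptms, Tpi1, Xpnpep1, Acta2, M6pr, Fam73a, Ppp3ca, Gng11 and Atp6v0e. They serve varied functions, and DQ685217 is a transcript known only by its cDNA name. Rcn1, a calcium-binding protein of the endoplasmic reticulum, came first. It ran from 0 to 7.53 with a median of 3.09 in retaining and from 1.06 to 7.95 with a median of 5.27 in lacking Tcf21-traced cells. The medians of the Postn-traced class were 2.53 and 5.05. It was above the minimum in 12 of 22 (54.5%, 32.2% to 75.6%) against 15 of 17 (88.2%, 63.6% to 98.5%) cells and in 6 of 13 against 12 of 14. The differences were -2.39 and -2.23, close to the SD between cells of 1.88 to 2.75.

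Acta2 was the contractile gene among them. Its median was 1.81 in retaining and 6.04 in lacking Tcf21-traced cells, and 1.71 and 6.06 in the Postn-traced class. In each group it ran from 0 to at least 8.07. It was above the minimum in 10 of 22 against 11 of 17 cells and in 6 of 13 against 9 of 14, and the intervals of these shares overlapped. The differences of -1.85 and -1.90 were smaller than the SD between cells, which lay from 3.52 to 4.32. Without the cells that had 3 or more smooth muscle or pericyte genes, the latter fell under 1 log2 unit. Acta2 is itself among the genes that picked those cells. Xpnpep1, a cytosolic aminopeptidase, was found in 2 of 13 retaining against 9 of 14 lacking Postn-traced cells and differed by -1.90 and -3.95. Tpi1, the glycolytic enzyme triosephosphate isomerase, was found in 5 of 13 against 10 of 14 and in 13 of 22 against 15 of 17 cells. It differed by -1.99 and -2.47, but in the Tcf21-traced class its median was higher in the retaining cells, 6.80 against 6.22.

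The others encode Swi5, a DNA repair factor (-2.23 and -2.11), parathymosin (Ptms, -2.01 and -2.06), a mannose 6-phosphate receptor that carries lysosomal enzymes (M6pr, -2.50 and -1.79) and a subunit of the proton pump of lysosomes (Atp6v0e, -1.71 and -2.24). Ppp3ca, the catalytic subunit of calcineurin, a phosphatase known for its role in cardiac growth, differed by -2.41 and -1.74. Gng11, a G protein subunit, differed by -1.73 and -2.21, Fam73a by -2.31 and -1.74, and DQ685217 by -2.14 and -2.43. In the Postn-traced class Gng11 turned to 0.12 with the mean of TPM and DQ685217 to 0.44 in cells with Xist above 5 TPM.

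**Figure D3:**
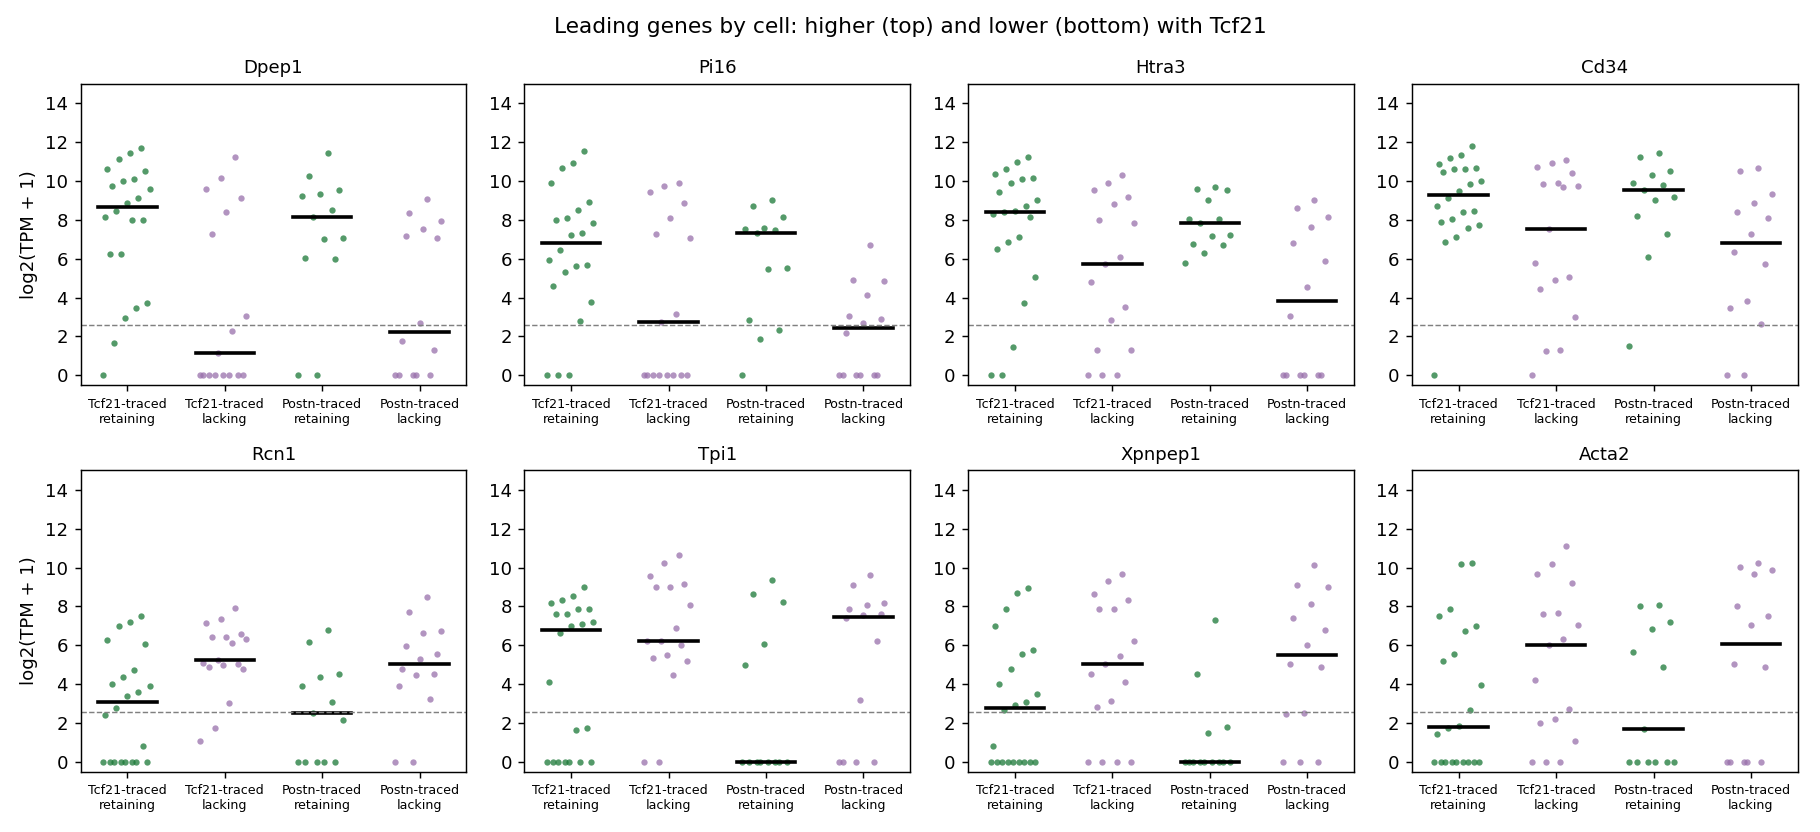
Leading genes in each of the 66 cells, in log2 (TPM+1), by class and Tcf21 side; bars are medians and the dashed line is 5 TPM. Dpep1, Pi16, Htra3 and Cd34 (top) have the higher medians in retaining cells, and Rcn1, Xpnpep1 and Acta2 in lacking cells of both classes, whereas Tpi1 does so only in the Postn-traced class, and the groups overlap in every panel.

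Lists of genes with known roles were counted in the same way, beside the shares of all genes, 18.5% higher and 13.7% lower in the Tcf21-traced and 17% and 23.6% in the Postn-traced class. Genes of resident fibroblasts were mostly on the retaining side. Like the other lists, this one was chosen with earlier results of these data known, so it is no independent evidence. Its members Cd34, Pi16, Htra3 and Entpd2 are also among the leading higher genes. Of 22 listed, 17 met the condition in the Tcf21-traced class, where 10 were higher and 1 lower. Their median difference was 1.40, against 0.07 over all genes that met it there. In the Postn-traced class 11 of 16 were higher and 1 lower, with a median of 1.64 against -0.13. Over all 22, whether or not they met the condition, the medians were 1.32 and 1.24. Among the 8 that were higher in both classes were Gsn, Cd34, Ly6a, Pi16, C3, Htra3 and Entpd2. Ly6a, which encodes the surface antigen Sca-1, had medians of 10.29 in retaining and 9.31 in lacking Tcf21-traced cells and of 8.92 and 4.29 in the Postn-traced class, with differences of 1.69 and 1.76. C3, the central component of complement, differed by 2.20 and 1.65. In cells with Xist above 5 TPM C3 turned to -1.81 in the Postn-traced class. Not all members followed. Col15a1, a basement membrane collagen, was lower in both (-1.24 and -1.02), but with Tcf21 above 1 TPM, which moves the 2 cells just under the minimum, it was 0.43 in the Postn-traced class. It was 0.059 and 2.78 in cells with Xist. Col14a1 differed little (-0.35 and -0.22).

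Immediate early genes, which are switched on within minutes by growth factors or by tissue dissociation, were mostly higher in retaining cells as well. In the Tcf21-traced class 14 of 17 were higher and 1 (Klf2) lower, with a median difference of 1.65, and in the Postn-traced class 12 of 18 were higher and none lower, with a median of 1.48. Of all genes that met the condition 18.5% and 17% were higher, with medians of 0.07 and -0.13. Over all 22 listed genes the medians were 1.46 and 1.23. The 12 that were higher in both classes were Fos, Fosb, Jun, Egr1, Ier3, Atf3, Dusp1, Zfp36, Btg2, Klf4, Socs3 and Cyr61. Some of these turned under alternatives. With the mean of TPM, Jun was -0.24 in the Tcf21-traced and Cyr61 -0.48 in the Postn-traced class. Socs3 was -1.18 in the Postn-traced class in cells with Xist. Fos differed by 1.69 and 1.72. Its medians were much closer, 11.15 against 11.01 and 11.60 against 10.76, and the means parted through a few lacking cells with low values. Egr1 showed the same form, with medians of 10.19 against 9.78 and 10.95 against 10.84 and differences of 1.69 and 1.71. Ier3, found in 20 of 22 against 9 of 17 Tcf21-traced cells, differed by 3.43 and 2.12, the latter turning to -0.070 with Tcf21 above 1 TPM. Klf6 was near level (-0.23 and -0.10).

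The mean of the 22 immediate early genes in a cell had a median of 5.92 (1.73 to 7.45) in retaining and 5.17 (0.62 to 7.28) in lacking Tcf21-traced cells, and of 6.90 (2.56 to 7.70) and 5.78 (1.06 to 7.24) in the Postn-traced class. With the differences adjusted for this mean, an alternative chosen after seeing the data, 79 genes were higher in both classes, 66 of them among the 112, and the lower genes rose from 67 to 107, of which 54 were among the 67. All 24 leading genes stayed past 1 log2 unit in their direction in both classes.

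Genes of the contractile apparatus were mostly lower with Tcf21 in the Postn-traced class, 8 of 11 with none higher and a median difference of -1.76 (-1.15 over all 15 listed), against 23.6% of all genes lower. The smooth muscle markers moved the same way in this class, with 3 or more in 0 of 13 retaining against 4 of 14 lacking cells. Without the cells with such markers Acta2 differed there by -0.78, Tagln by -1.59, Tpm1 by -2.09 and Cnn2 by -2.92. Acta2 and Tagln are among the markers that picked those cells, so their values are in part fixed by the choice. In the Tcf21-traced class 2 of 9 were lower (Acta2 and Cald1) and none higher, with a median of -0.29, beside 13.7% lower and a median of 0.07 over all genes. Only Acta2 was lower in both. Cnn2, which encodes the actin-binding protein calponin 2, had medians of 2.11 in retaining and 8.54 in lacking Postn-traced cells but of 7.14 and 7.63 in the Tcf21-traced class, with differences of -3.62 and -0.23. Tagln differed by -2.85 in the Postn-traced and 0.64 in the Tcf21-traced class, and Tpm1, a tropomyosin, by -2.52 and -0.41. Whether the classes differ in this was not tested.

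The main fibrillar collagens were abundant on both sides, and most matrix genes differed by under 1 log2 unit. A list of fibrillar matrix and crosslinking genes held fibrillar collagens and genes of their processing, and also Fn1 and Sparc. Of it 5 of 19, Fn1 among them, were lower and 1 higher in the Tcf21-traced class. In the Postn-traced class 6 of 21 were lower and none higher, and the median differences were -0.42 and -0.70. Of all genes 13.7% and 23.6% were lower, so the share in the Postn-traced class was near that of all genes. Col1a2 had medians of 10.81 against 11.13 and 11.59 against 12.23, and Col1a1 of 9.50 against 9.89 and 10.15 against 10.98, with a difference of -1.19 in the latter class. Col3a1 differed by -0.86 and 0.07. Plod2, a lysyl hydroxylase that prepares collagen for crosslinking, was the only gene of this list lower in both classes (-1.71 and -1.35). Its medians were 3.68 against 5.88 and 3.86 against 6.03. In cells with Xist above 5 TPM, however, it turned to 0.72 in the Postn-traced class. Of 6 scar-stage and cartilage-type genes that met the condition, 2 were lower in the Tcf21-traced and 3 in the Postn-traced class and none higher, too few genes to set against the shares of all. Cthrc1, a secreted protein of activated fibroblasts, was lower in both. It was above the minimum in 15 of 22 against 15 of 17 Tcf21-traced cells and in 12 of 13 against all 14 Postn-traced cells. The differences were -2.10 and -1.43, but in the Postn-traced class the medians were level, 10.85 and 10.81. There Cthrc1 turned to 0.16 in cells with Xist.

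Of 13 genes of a myofibroblast list, 2 of 10 were higher and 3 lower in the Tcf21-traced and 2 of 12 higher and 4 lower in the Postn-traced class. The list was taken from genes that the study displayed for these cells, so it is no independent evidence, and Postn, which the choice of cells used, is left out. The median differences were -0.50 and -0.71, beside 0.07 and -0.13 over all genes, and the lists are short. Acta2 was lower and Ctgf higher in both. Ctgf, a matricellular protein induced by TGF-beta, had medians of 9.24 against 7.90 and 9.01 against 6.46 and differed by 1.19 and 2.75. With the mean of TPM it was -0.018 in the Tcf21-traced class. Mfap2, a microfibril protein, was opposite (1.54 and -1.33), but in cells with Xist above 5 TPM it turned to -1.49 in the Tcf21-traced class. Tnc, the matrix glycoprotein tenascin C, was found in 7 of 13 retaining against 12 of 14 lacking Postn-traced cells, but in 6 of 22 against 2 of 17 Tcf21-traced cells.

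The general fibroblast genes showed no common direction: 1 of 9 was lower and none higher in the Tcf21-traced class. In the Postn-traced class 1 was higher and 1 lower, and the medians were -0.30 and 0.07. All genes that met the condition had medians of 0.07 and -0.13, with 18.5% and 17% higher and 13.7% and 23.6% lower. Pdgfra, a receptor of fibroblasts, differed by 0.98 and 0.82 and Dcn by 0.79 and 0.71. Pdgfrb was found in 10 of 22 retaining against 15 of 17 lacking Tcf21-traced cells (difference -2.94), but its mean was 4.10 on both sides of the Postn-traced class.

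**Figure D4:**
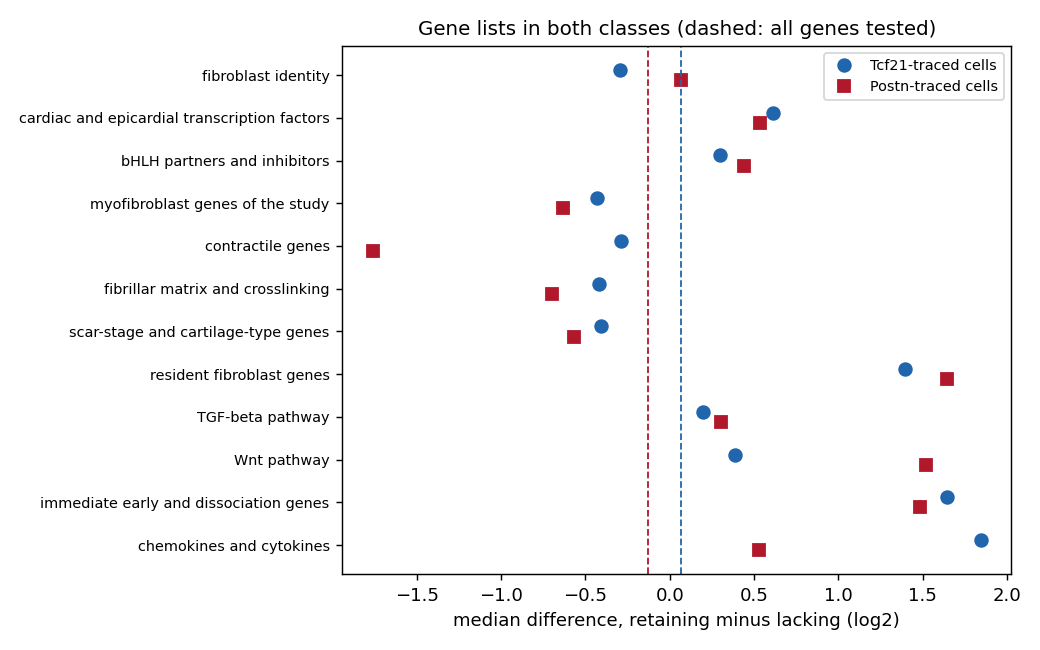
Median difference between Tcf21-retaining and Tcf21-lacking cells, in log2 units, over the genes of each list that met the 50% condition. Circles are the Tcf21-traced and squares the Postn-traced class. Lists with at least 3 such genes in both classes are drawn, the myofibroblast list with Postn. Dashed lines are the medians of all genes that met the condition (0.07 and -0.13). Resident fibroblast genes (1.40 and 1.64) and immediate early genes (1.65 and 1.48) lie to the right in both classes.

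Among the partners and inhibitors of Tcf21, only Id2 of the Id genes was counted as higher in both classes, with medians of 6.66 against 2.74 and 8.07 against 6.47 and differences of 1.82 and 2.36. Id1 was found in 11 of 22 against 3 of 17 and in 5 of 13 against 1 of 14 cells (1.82 and 1.25), and met the 50% condition only in the Tcf21-traced class. Id3 was abundant throughout and differed by 0.30 and 1.87. Tcf4, the E protein gene with the highest share of cells, was found in all cells but 1 and did not differ in the Tcf21-traced class (-0.04), with 0.44 in the Postn-traced class. Over the list 2 of 5 genes were higher and none lower in the Tcf21-traced class. In the Postn-traced class 2 of 5 were higher and 1 lower. The medians were 0.30 and 0.44, beside 0.07 and -0.13 over all genes that met the condition. Of all those genes 18.5% and 17% were higher and 13.7% and 23.6% lower, and the list is short.

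Of other cardiac and epicardial transcription factors none was counted in the same direction in both classes: 2 of 5 were lower and none higher in the Tcf21-traced class, and 1 of 4 was higher and none lower in the Postn-traced class. The medians were 0.61 and 0.54, and 0.42 and -0.28 over all 13 listed. All genes that met the condition had medians of 0.07 and -0.13, with 18.5% and 17% higher and 13.7% and 23.6% lower. Gata6, a zinc finger factor, was found in 11 of 22 retaining against 13 of 17 lacking Tcf21-traced cells (-2.68) and in 9 of 13 against 10 of 14 Postn-traced cells (-0.32). Prrx1, a homeobox factor of mesenchyme, differed by -1.34 and 0.58, and Tbx20, a T-box factor, by 0.98 and 1.86.

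Of the TGF-beta pathway 4 of 12 genes were higher and 1 lower in the Tcf21-traced class and 6 of 14 higher and 3 lower in the Postn-traced class. Of all genes 18.5% and 17% were higher and 13.7% and 23.6% lower. The median differences were 0.19 and 0.31, beside 0.07 and -0.13 over all genes. Tgfbr3 and Ltbp4 were higher in both. Tgfbr3, the coreceptor betaglycan, was found in 14 of 22 against 5 of 17 and in 9 of 13 against 7 of 14 cells and differed by 2.67 and 1.42. Ltbp4, which binds latent TGF-beta in the matrix, differed by 1.47 and 1.5, while its relative Ltbp2 differed by -2.70 and 0.50. Of the Wnt pathway 2 of 7 were higher and 1 lower in the Tcf21-traced class and 5 of 8 higher and none lower in the Postn-traced class, with medians of 0.38 and 1.52, but of 0.01 and 0 over all 22 listed. Frzb, a secreted Wnt antagonist, differed by 1.5 and 1.44, and Wisp2 by 1.24 and 3.36. Some of these values turned under alternatives: Frzb was -0.20 in the Tcf21-traced class with the mean of TPM, and Wisp2 was -0.69 there without cells with smooth muscle or pericyte markers and -0.64 in the Postn-traced class in cells with Xist.

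Of 7 chemokines and cytokines that met the condition in the Tcf21-traced class, 5 were higher with Tcf21 and 1 lower, with a median of 1.85. Among all genes that met it there 18.5% were higher and 13.7% lower, with a median of 0.07. The list members Ccl2, Cxcl16, Csf1 and Il33 met it only on the retaining side. Over all 17 listed the medians were 0.48 and 0.38. Only 3 of the list met the condition in the Postn-traced class, and none passed 1 log2 unit. Their median was 0.53, beside -0.13 over all genes. Csf1, a growth factor of macrophages, was found in 17 of 22 against 6 of 17 Tcf21-traced cells and in 5 of 13 against 5 of 14 Postn-traced cells. Ccl2, a chemokine for monocytes, was found in 13 of 22 against 6 of 17 and in 4 of 13 against 1 of 14 cells. Of 25 cell cycle genes 2 met the condition in each class, none was higher, and 1 was lower, in the Postn-traced class.

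The retaining cells were next set beside 3 classes that the choice did not use, as a description. The 24 activated Postn-negative cells came from the same capture as the Postn-traced cells. They are named by their label: 3 of them had Postn above 5 TPM and are also among the 7 untraced retaining cells of that capture below. All 12 leading higher genes had a higher mean in the Postn-negative cells than in the lacking cells (mean of both classes), and 9 were also above the retaining cells. All 12 leading lower genes had a lower mean there than in the lacking cells. Over all 2456 genes 19.2% averaged above and 80.8% below the lacking cells, so a lower mean was common. Dpep1 averaged 9.03 in Postn-negative, 7.11 in retaining and 3.77 in lacking Postn-traced cells. Acta2 averaged 0.96, 3.26 and 5.17 in the same order. Fewer genes were above 5 TPM in the Postn-negative cells (median 2342) than in the lacking cells (3410 and 3842.5).

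Uninjured hearts gave 17 Tcf21-traced cells and 12 cells labelled Postn-, CD31- and CD45-, from a further capture, and 4 and 3 of these had Postn above 5 TPM. The other 4 uninjured cells, labelled Postn+, were not used. In the resident Tcf21-traced cells all 12 higher genes averaged above, and all 12 lower genes below, the lacking cells. Among the 12 other cells, 11 of the 12 higher genes averaged above the lacking cells, Arhgap29 (0.78) being the exception, and all 12 lower genes below. Of the 2456 genes 18% and 16% averaged above and 82% and 84% below, with medians of 2264 and 2091.5 genes per cell, so the order of the lower genes is that of most genes. A retaining cell had a median of 10 of the 12 higher genes above 5 TPM in either class, against 7 and 5.5 in lacking cells, 10 in Postn-negative cells and 9 and 9.5 in the resident classes. Of the 12 lower genes it had 6 and 5, against 10 and 9 in lacking cells and 5, 4 and 4 in the 3 other classes. The numbers in retaining and lacking cells follow from the choice of the genes, and those of the other classes do not.

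Cells without the eGFP mark that expressed Postn allowed the same split in cells that the choice of genes had not used. Postn itself differed between the sides there, by -0.82 in the capture of the Tcf21-traced class, -4.6 in that of the Postn-traced class and 2.14 in the scar capture. The capture of the Tcf21-traced class held 19, of which 6 retained and 13 lacked Tcf21, with similar numbers of genes (medians 3537.5 and 3361). There 11 of the 12 leading higher genes had a higher mean in retaining cells, against 62.4% of the 2456 genes, and 7 were past 1 log2 unit. Of all 112 higher genes 53 (47.3%) were higher by at least 1 log2 unit, against 34% of the 2456 genes, and 12 were lower by as much. Ms4a4d differed by 4.73, Selenbp1 by 4.20 and Dpep1 by 2.52, but Pi16 only by 0.10 and Sparcl1 by 0.01. Of the 67 lower genes 21 (31.3%) were lower by at least 1 log2 unit, against 14.3% of all, while 18 were higher by as much. Of the 12 leading lower genes 6 had a lower mean, against 37.6% of all genes, among them Acta2 (-4.07), Tpi1 (-2.92) and Rcn1 (-2.50), while Xpnpep1 (2.73) and Ptms (2.68) went the other way.

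In the capture made mostly of untraced scar cells, 27 cells expressed Postn, 7 retaining and 20 lacking Tcf21. The lacking cells reached down to 188 genes, and 66.9% of the 2456 genes were higher in the retaining and 2.28% in the lacking cells by at least 1 log2 unit. Of the 112 higher genes 64 (57.1%) were higher and of the 67 lower genes 6 (8.96%) lower by as much. Without cells under 50% of the median gene number of the capture, 7 and 14 cells were left. Then 37 of the 112 genes (33%) were higher, against 35.6% of all genes, and 10 of the 67 (14.9%) lower, against 10.7%, so the shares were near those of all genes. The other way by as much went 20 of the 112 and 23 of the 67. Ms4a4d (3.45), Cd34 (1.6) and Fbln1 (1.49) were higher there by more than 1 log2 unit, and Selenbp1 (-1.44) and Arhgap29 (-1.23) lower. Only 6 of the 12 leading higher and 4 of the 12 leading lower genes had their direction in these cells, where 67.8% of all genes were higher and 32.2% lower. The capture of the Postn-traced class held 7 untraced retaining and only 2 lacking cells, with medians of 2332 and 1661 genes. There all 12 leading higher genes were higher in the retaining cells by at least 1 log2 unit, but so were 8 of the 12 leading lower genes and 61.4% of the 2456 genes. Of the 112 higher genes 93 (83%) were higher by as much and 3 lower. Of the 67 lower genes 21 (31.3%) were lower, against 17.5% of all genes, and 38 higher.

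**Figure D5:**
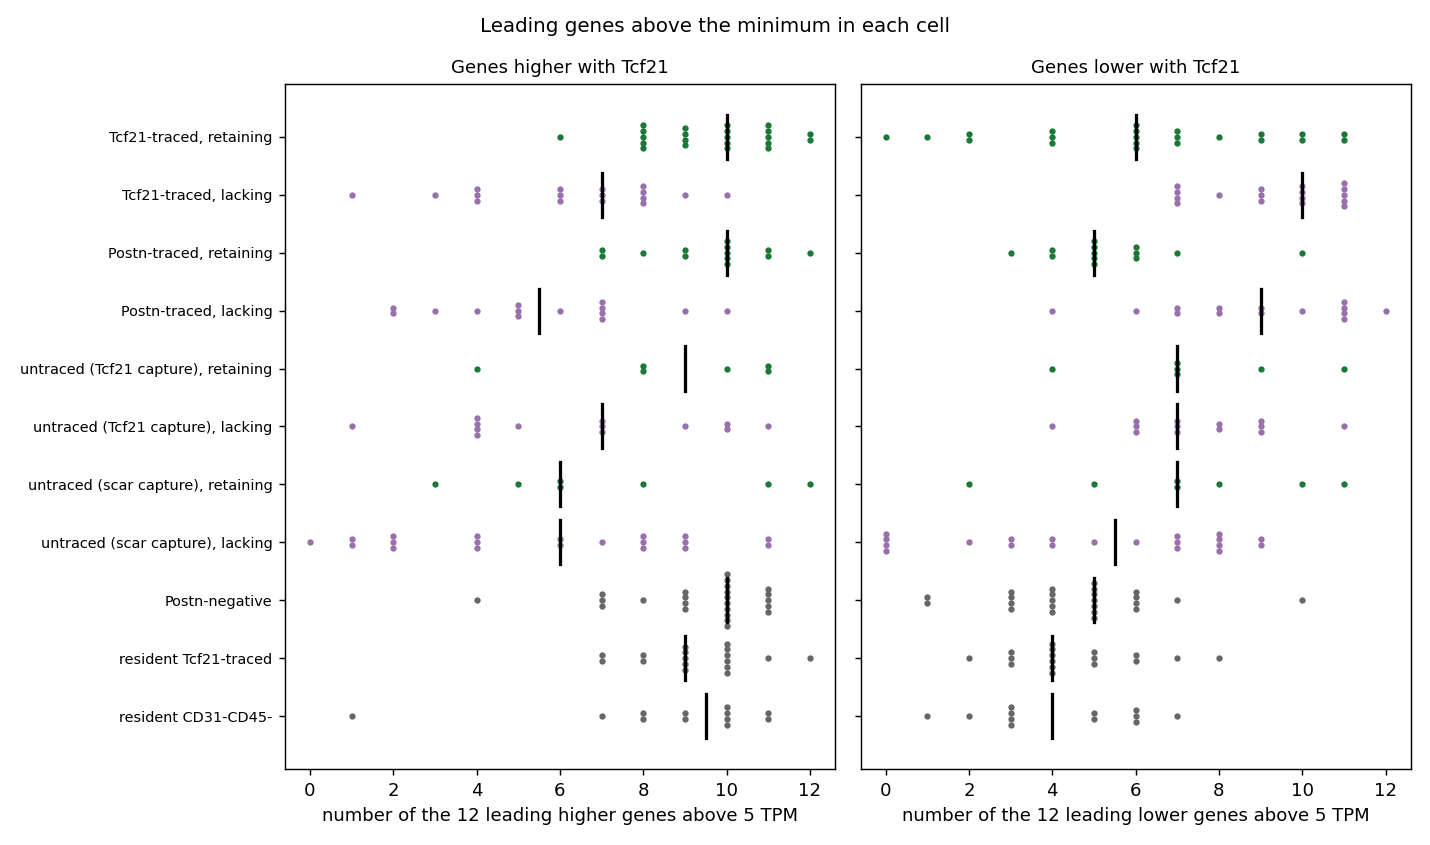
Number of the 12 leading higher (left) and lower (right) genes above 5 TPM in each cell, by class, with vertical bars at the medians; untraced cells are those expressing Postn, from the capture of the Tcf21-traced class and from the scar capture. Retaining cells of both traced classes have a median of 10 of the higher genes, as do Postn-negative cells, and untraced retaining cells have medians of 9 and 6, against 7 and 6 in untraced lacking cells; without the shallow cells the latter is 7.5.

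Transcripts of both sex chromosomes were present in each group. Xist, which is made from the inactive X chromosome, was above 5 TPM in 10 of 22 retaining and 8 of 17 lacking Tcf21-traced cells, and in 5 of 13 and 6 of 14 Postn-traced cells. At least 1 of 4 Y chromosome genes was above it without Xist in 8 and 2 Tcf21-traced cells and in 2 and 8 Postn-traced cells, so the sides were unequal in opposite ways, and 3 retaining Tcf21-traced cells had both. Ddx3y, a Y chromosome gene, differed by 2.11 in one class and -1.48 in the other. Among the cells with Xist above the minimum, 10 against 8 and 5 against 6, 11 of the 12 leading genes of either direction kept it in both classes. In the Postn-traced class Dpep1 did not, at -0.97, nor did DQ685217 of the lower genes, at 0.44.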

How the data were processed

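RNA of 185 single cells was amplified by SMARTer chemistry and made into libraries by Nextera tagmentation. The submitters' processing notes name Bowtie 1.0.0, eXpress 1.5.1 and mm10. The values used are those deposited by the authors, 1 table of log2 values for 17171 genes, with 3 columns of no sample that were not used. The table is named as FPKM+1, but the values of each cell, converted back, add up to 999257 to 1000000. They are therefore called TPM. eXpress divides reads between similar transcripts by estimation, so close family members are uncertain. No 2 cells had identical values.

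Means, differences, shares of cells above 5 TPM and their exact 95% intervals were computed in Python 3.11.15 with NumPy 2.4.6, pandas 2.3.3 and SciPy 1.17.1, and drawn with Matplotlib 3.10.9. On simulated data the comparison found most shifted genes and also counted some unshifted ones, so being counted is no proof of a shift. The named genes were the 12 of each direction with the largest smaller difference, 5 opposite genes, the 2 genes of the choice, and members of 21 gene lists as examples, picked after their values were seen. The members and the lists were chosen with earlier results of these data known. Alternatives changed the minimum, average, pseudocount, scaling, filter and cells.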

Additional observations from a re-analysis of the deposited data

Results flagged for a closer look

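In 5 genes the difference between Tcf21-retaining and Tcf21-lacking cells took opposite signs in the classes by at least 2 log2 units on either side, and the difference between the classes was not tested. Gpr153, a gene for an orphan receptor, differed by 2.63 in the Tcf21-traced and -2.57 in the Postn-traced class, 5.20 apart. Timm8b, of mitochondrial protein import, differed by 2.49 and -3.55, 6.04 apart. In cells with Xist above 5 TPM it turned to -0.83 in the Tcf21-traced class. Nsfl1c, a cofactor of the p97 ATPase, differed by 2.49 and -2.39, 4.88 apart. It turned to 1.48 in the Postn-traced class in cells with Xist above 5 TPM. Psmd12, of the proteasome, differed by 2.05 and -2.30, 4.35 apart. Sertad4 went the other way, with -3.65 and 2.39, which is -6.05 for the former minus the latter.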

How the results depend on the processing

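The counts of genes higher in both classes, lower in both and opposite, 112, 67 and 106 as reported, depended on the average and the pseudocount. They were 207, 193 and 315 with the median over cells, 40, 28 and 58 with the mean of TPM before the logarithm, 187, 167 and 239 with a pseudocount of 0.1, and 74, 26 and 38 with a pseudocount of 5. With the minimum share of cells at 25% the lower and opposite genes were 141 and 208, and with no such minimum the counts were 181, 161 and 234, since more genes could count. At 2 log2 units they were 14, 4 and 5. Of the alternatives chosen after seeing the data, cells with Xist above 5 TPM gave 252, 216 and 402 from fewer cells. Leaving out cells with smooth muscle or pericyte markers gave 169 opposite genes, and adjusting for the immediate early mean gave 107 lower genes. All other counts were within 1.5 times those reported, but the genes were not always the same: with the untraced cells of the same capture added, 64 of the 112 and 25 of the 67 remained. No cell was shallow enough to be left out on that ground. Centring each cell moved the median gene of the Postn-traced class by -0.13 and adjusting for the number of genes by 0.25. Except where fewer cells or genes show it, the cause was not tested.

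Of 576 values of the 24 leading genes under alternatives that changed the cells or the measure, 566 moved by less than the SD between cells, 5 moved further in the same direction and 5 reversed. The SD is wide: with the mean of TPM only 6 of the 12 higher and 5 of the 12 lower genes stayed past 1 log2 unit in both classes. Of the lower genes 9 did with the median over cells, 10 with Tcf21 above 1 TPM and 8 with untraced cells added, and 9 higher and 8 lower genes did in cells with Xist. Reversed values of all named genes follow, as retaining minus lacking. With Tcf21 above 1 TPM or over 0, Col15a1 was 0.43 and Ier3 -0.070 in the Postn-traced class. With the median, Tpi1 was 0.58 in the Tcf21-traced and Cthrc1 0.043 in the Postn-traced class. With the mean of TPM, Gstm1 was -0.36, Jun -0.24, Lox 0.23, Frzb -0.20 and Ctgf -0.018 in the Tcf21-traced class, and Gng11 0.12 and Cyr61 -0.48 in the Postn-traced class. In cells with Xist, Timm8b was -0.83, Col15a1 0.059, Klf2 0.80 and Mfap2 -1.49 in the Tcf21-traced class. In the Postn-traced class Dpep1 was -0.97, DQ685217 0.44, Nsfl1c 1.48, Dpt -0.16, C3 -1.81, Col15a1 2.78, Ier3 -0.49, Socs3 -1.18, Cthrc1 0.16, Plod2 0.72 and Wisp2 -0.64. Without cells with smooth muscle or pericyte markers Wisp2 was -0.69 in the Tcf21-traced class. The cause was not tested.

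No paired analysis was possible because no label ties a cell to a mouse. The cells of a class are not independent samples, so no size of difference here carries an error over mice. Read depth per cell is unknown, and lack of Tcf21 cannot be told apart from a missed transcript. Class, genotype and capture cannot be told apart.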
